A study of Homo sapiens with 17 samples.

Results

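IκB proteins hold the transcription factor NF-κB in check, and the genes that encode them are described here in MDA-MB-231 cells over 24 h with TRAIL. MDA-MB-231 is an established human line from a triple-negative breast cancer, and the labels class it as mesenchymal and basal B. TRAIL is a TNF family ligand that can start apoptosis through death receptors, and the 45 nM used is called suboptimal by the submitters. RNA was taken at 0, 1, 3, 6, 12 and 24 h, in 3 libraries per time except 1 h, where 2 were analysed. All 17 libraries carry the same label of TRAIL treatment, those at 0 h included, and no later untreated library is labelled, so time with TRAIL and time in culture cannot be told apart. The labels do not say whether replicates came from separate cultures, so the p-values measure the spread between these libraries, which may be technical. Of the 6 family genes sought among 58870 entries, 5 were found by symbol: NFKBIA, NFKBIB, NFKBIE, NFKBIZ and BCL3. NFKBID was found by its Ensembl identifier (ENSG00000167604), which the deposited table lists under the symbol AD000864.1, and it is given beside the 5 and left out of their counts.

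In resting cells, IκBα, IκBβ and IκBε (NFKBIA, NFKBIB and NFKBIE) bind NF-κB dimers through ankyrin repeats and keep them in the cytoplasm. The IKK kinase complex marks them for destruction by the proteasome, NF-κB enters the nucleus, and genes of its own inhibitors are among its targets, which closes a feedback loop. IκBζ, IκBNS and BCL-3 (NFKBIZ, NFKBID and BCL3) also have ankyrin repeats but act in the nucleus, where they bind mainly p50 or p52 dimers on DNA and can raise or lower transcription of chosen genes.

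Total counts per library ran from 13731497 to 19234939. All 6 family genes passed the filter on low counts, with 32 to 78 counts per library for NFKBID and 159 to 1612 for the others. Levels are given as CPM, counts scaled to a common library total. The line's markers VIM, CD44, AXL and MSN stood at 613 to 3724 CPM in every library. Among luminal and epithelial markers, ESR1, PGR and CDH1 did not exceed 1.01 CPM, while EPCAM (13.1 to 19.3 CPM) and ERBB2 (56.4 to 70.9 CPM) were present. The 6 leucocyte and endothelial markers summed to at most 3.60 CPM up to 12 h and to 4.60 to 5.62 CPM at 24 h, with CD3E at 0 counts throughout, and their part in the 24 h values was not tested. Replicates 2 and 3 at 6 h and at 24 h were closer to each other (chi-square per gene 1.55 and 1.68) than any other pair (3.86 to 14.6), and were kept as separate libraries. Mitochondrial genes took 7.99% to 8.97% of counts at 3 h and 3.66% to 4.14% at 24 h, and the part of this shift in the values below was not tested.

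The DNA just upstream of a start site is shown for 4 of the genes, because 3 of them share the same 10 letters in the window shown. The windows are the 250 bases before a RefSeq start site (GRCh38.p14, 5′ to 3′ on the gene's own strand), and capitals mark matches on either strand to the κB consensus, the motif bound by NF-κB. They lie at chr14:35404750-35404999 (NFKBIA, minus strand), chr3:101827740-101827989 (NFKBIZ, the upstream of its start sites, plus strand), chr19:38899719-38899968 (NFKBIB, the downstream of its start sites, plus strand) and chr19:44748458-44748707 (BCL3, plus strand).
NFKBIA: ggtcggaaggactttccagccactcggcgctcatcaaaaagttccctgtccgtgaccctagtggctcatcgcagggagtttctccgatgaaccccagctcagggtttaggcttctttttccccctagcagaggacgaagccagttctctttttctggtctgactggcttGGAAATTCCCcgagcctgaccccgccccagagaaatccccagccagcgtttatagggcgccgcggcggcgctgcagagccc
NFKBIZ: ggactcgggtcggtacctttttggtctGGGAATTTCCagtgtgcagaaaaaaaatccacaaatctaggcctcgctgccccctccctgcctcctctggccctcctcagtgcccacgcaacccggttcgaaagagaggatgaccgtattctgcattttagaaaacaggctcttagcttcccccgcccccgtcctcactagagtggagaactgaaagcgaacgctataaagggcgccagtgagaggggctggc
NFKBIB: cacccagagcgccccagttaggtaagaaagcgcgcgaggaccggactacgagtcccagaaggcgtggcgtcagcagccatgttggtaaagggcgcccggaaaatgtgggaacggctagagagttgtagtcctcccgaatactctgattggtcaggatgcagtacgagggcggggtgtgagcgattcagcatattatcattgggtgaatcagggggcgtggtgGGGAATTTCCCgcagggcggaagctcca
BCL3: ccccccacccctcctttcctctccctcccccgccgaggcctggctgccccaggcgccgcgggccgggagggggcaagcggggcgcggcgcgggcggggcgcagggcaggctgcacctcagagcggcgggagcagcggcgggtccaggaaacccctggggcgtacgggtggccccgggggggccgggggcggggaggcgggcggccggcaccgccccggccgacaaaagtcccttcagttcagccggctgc
NFKBIZ and NFKBIB carry GGGAATTTCC, and NFKBIA carries the same letters read from the other strand (GGAAATTCCC). The match begins 81 bases before the start site in NFKBIA, 223 in NFKBIZ and 28 in NFKBIB, where a further match to the consensus, shifted by 1 base, overlaps it. This 10-letter word was chosen after the sequences were seen, and it occurs on either strand in 50 of 35114 RefSeq promoter windows of this length (0.142%), whereas the κB consensus occurs in 9.96%. Of the 9 windows listed for 5 family genes, 6 held the consensus, and the BCL3 window held no match. The other NFKBIB window, not shown, held no match, and the other NFKBIZ window held GGGGTTTCCC. NFKBID windows, also not shown, held GGAATTCCCC and GGGGACTCCC. Which start sites these cells use was not tested, so the shared letters cannot be set against the transcript changes. A match describes letters and does not show binding.

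The family rose together at 3 h and then parted. At 3 h all 5 genes found by symbol were higher than at 0 h, beside a background of 9.04% of the 15365 genes tested that were called higher (edgeR quasi-likelihood test, Benjamini-Hochberg adjusted p below 0.05). Their median log2 fold change was 0.96, and that of all genes tested was -0.0041. At 1 h NFKBIA alone was called, beside a background of 0.260% higher. At 6 h all 5 were higher (background 16.9%). At 12 h (background 5.96%) and 24 h (background 18.0%), NFKBIA, NFKBIE and BCL3 were called higher, and NFKBIB and NFKBIZ did not pass the test. The family's median log2 fold change was 0.16 after 1 h, 0.49 after 6 h, 0.43 after 12 h and 0.59 after 24 h. All 5 comparisons share the same 3 libraries taken at 0 h. Where libraries of different times are said below not to overlap, this only describes the values. The share of all tested genes that did the same is not given. The 5 genes also differed across all times in 1 joint test, as did 64.2% of the genes tested. In a bulk sample, fewer cells with a transcript and less transcript per cell cannot be told apart.

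**Figure D1:**
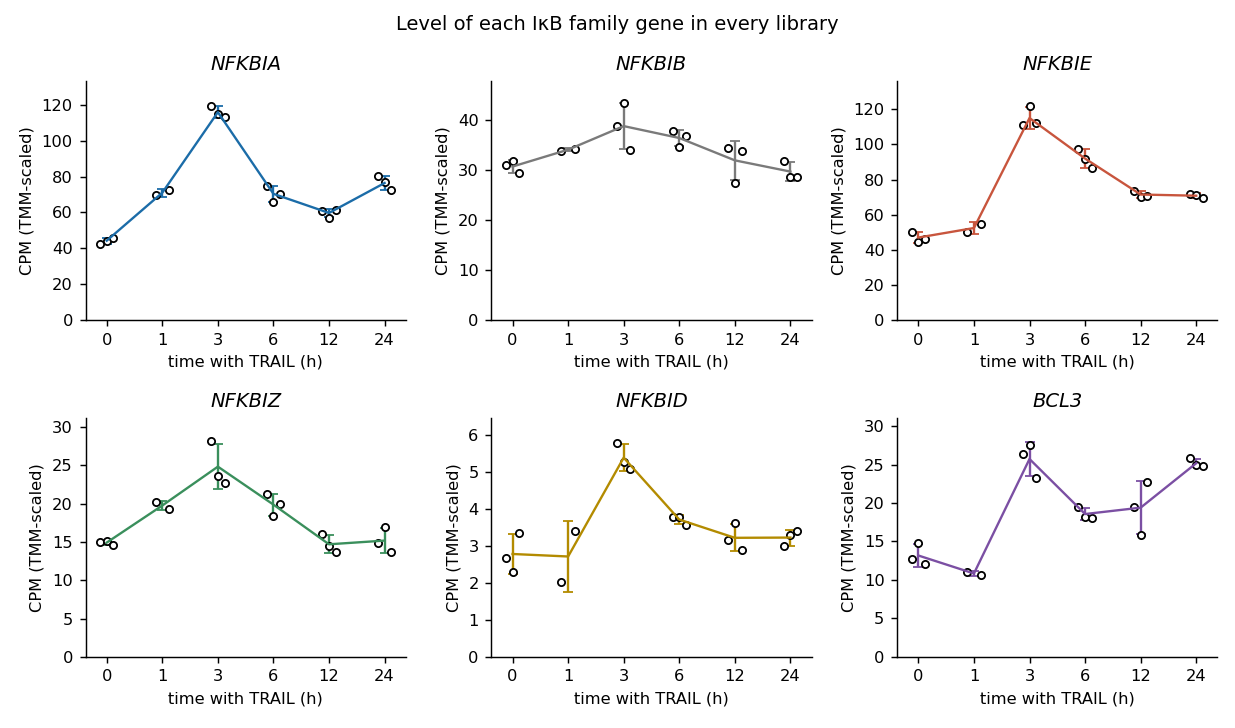
CPM of each family gene (vertical axis, linear from 0) in every library against time with TRAIL in hours, spaced evenly. Open circles are libraries, and the line joins means with SD bars. Every gene has its highest mean at 3 h, where NFKBIA lies between 113 and 120 CPM, and BCL3 is again at 24.8 to 25.8 CPM at 24 h.

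NFKBIA encodes IκBα, the best known feedback inhibitor of NF-κB. The gene lies on chromosome 14 from 35401511 to 35404749 (minus strand, GRCh38, GENCODE 29, protein-coding). NFKBIA stood at 42.6, 44.2 and 46.0 CPM at 0 h and at 69.5 and 72.5 CPM at 1 h. It reached 120, 115 and 113 CPM at 3 h and was back at 75.0, 66.1 and 70.0 CPM by 6 h. The 12 h libraries held 60.6, 56.9 and 61.6 CPM and the 24 h libraries 80.2, 76.7 and 72.3 CPM. Every library from 1 h on was above every 0 h library, and the 3 h libraries were above all others. Relative to 0 h, NFKBIA had a log2 fold change of 0.68 by 1 h (SE 0.0698, adjusted p 8.0e-06). It peaked at 1.39 at 3 h (SE 0.0629, adjusted p 1.5e-11), which is a 2.62-fold rise. Later values were 0.67 at 6 h (adjusted p 5.6e-07), 0.43 after 12 h (2.3e-04) and 0.79 after 24 h (6.3e-08). NFKBIA thus had a first and a later high point. It fell by 0.72 between 3 h and 6 h (adjusted p 1.9e-07) and fell by 0.24 between 6 h and 12 h (0.0105), a call lost with upper-quartile scaling (-0.16, adjusted p 0.0695). Between 12 h and 24 h NFKBIA rose by 0.36 (adjusted p 0.00149). In the order of its levels, 3 h came first, then 24 h, 1 h and 6 h, then 12 h and last 0 h. Differences among the 24 h, 1 h and 6 h levels did not pass the test (adjusted p 0.231 for 24 h against 1 h, 0.176 for 24 h against 6 h and 0.905 for 6 h against 1 h).

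NFKBIE encodes IκBε, an inhibitor that is itself induced by NF-κB and is known to act later than IκBα. It lies on chromosome 6 from 44258166 to 44265788 (minus strand). NFKBIE stood at 50.3, 44.7 and 45.9 CPM at 0 h, and at 50.1 and 54.7 CPM at 1 h. It climbed to 111, 122 and 112 CPM at 3 h and was at 97.3, 91.7 and 86.8 CPM at 6 h. The 12 h libraries held 73.6, 70.1 and 70.7 CPM and the 24 h libraries 71.8, 71.3 and 69.3 CPM. The 1 h libraries overlapped those at 0 h, and all later libraries stood above both. Relative to 0 h, NFKBIE had a log2 fold change of 0.16 by 1 h (adjusted p 0.955) and 1.29 at 3 h (SE 0.0645, adjusted p 4.5e-11). It was still 0.97 at 6 h (adjusted p 5.7e-09), and later 0.60 at 12 h (7.6e-06) and 0.59 in the 24 h libraries (3.7e-06). NFKBIE fell by 0.32 between 3 h and 6 h (adjusted p 4.5e-04) and by 0.36 between 6 h and 12 h (4.6e-04). The step from 12 h to 24 h was -0.013 and did not pass the test (adjusted p 0.918).

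NFKBIB encodes IκBβ, the inhibitor usually described as less tied to NF-κB feedback. It lies on chromosome 19 from 38899700 to 38908893 (plus strand). NFKBIB stood at 31.0, 31.8 and 29.4 CPM at 0 h and at 33.9 and 34.3 CPM at 1 h. Its values were 38.9, 43.5 and 34.1 CPM at 3 h and 37.8, 34.8 and 36.9 CPM at 6 h. The 12 h libraries held 34.6, 27.5 and 33.9 CPM and the 24 h libraries 31.9, 28.8 and 28.6 CPM. The 12 h and 24 h libraries overlapped those at 0 h, and the 3 h libraries were spread more widely than those at 0 h. The NFKBIB log2 fold change was 0.34 at 3 h (SE 0.0925, adjusted p 0.0169) and 0.25 at 6 h (SE 0.0916, adjusted p 0.0478). It was 0.15 after 1 h (adjusted p 0.987), 0.053 after 12 h (0.755) and -0.047 after 24 h (0.724). The 3 h result missed the threshold when 0 h replicate 3 (0.31, adjusted p 0.0771), 3 h replicate 1 (0.34, adjusted p 0.0519) or 3 h replicate 2 was left out (0.25, adjusted p 0.108). The 6 h call was lost under 18 of 31 alternatives, for example with RLE scaling (0.24, adjusted p 0.0514). The NFKBIB transcript is short and rich in G and C (1159 bases, 64.6% GC). With each library's trends of counts with length and GC content removed, NFKBIB was higher than at 0 h at 3 h (0.22, adjusted p 0.00646), 6 h (0.52, adjusted p 6.3e-07), 12 h (0.28, adjusted p 0.00164) and also 24 h (0.29, adjusted p 6.2e-04), and its step from 3 h to 6 h turned from -0.089 to 0.29 (adjusted p 3.4e-04).

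NFKBIZ encodes IκBζ, a nuclear co-regulator known to be needed for a set of inflammatory genes including IL6 and LCN2. It lies on chromosome 3 from 101827991 to 101861022 (plus strand). NFKBIZ stood at 15.1, 15.1 and 14.6 CPM at 0 h and at 20.2 and 19.3 CPM at 1 h. It was at 28.2, 23.6 and 22.7 CPM at 3 h and at 21.2, 18.4 and 20.0 CPM at 6 h. The 12 h libraries held 15.97, 14.4 and 13.7 CPM and the 24 h libraries 14.9, 16.9 and 13.7 CPM. The libraries at 1, 3 and 6 h were all above those at 0 h, and the libraries at 12 h and 24 h overlapped them. The NFKBIZ log2 fold change was 0.41 at 1 h, which was not called (SE 0.109, adjusted p 0.224). It was 0.74 at 3 h (SE 0.0972, adjusted p 3.3e-05) and 0.41 at 6 h (adjusted p 0.00392), but -0.026 after 12 h (0.895) and 0.026 after 24 h (0.863). The step from 1 h to 3 h was 0.33 (adjusted p 0.0752), and it passed the threshold without 3 h replicate 3 (0.39, adjusted p 0.0428) and with length and GC trends removed (0.34, adjusted p 0.0342). NFKBIZ fell by 0.32 between 3 h and 6 h (adjusted p 0.00973) and by 0.44 between 6 h and 12 h (0.00329). The former was not called without 3 h replicate 1 (-0.22, adjusted p 0.0811) or 6 h replicate 2 (-0.27, adjusted p 0.0541).

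BCL3 encodes BCL-3, a nuclear partner of p50 and p52 dimers that can activate or repress their targets. It lies on chromosome 19 from 44747705 to 44760044 (plus strand). BCL3 stood at 12.7, 14.8 and 12.0 CPM at 0 h and at 11.1 and 10.6 CPM at 1 h. It was at 26.3, 27.6 and 23.3 CPM at 3 h and at 19.5, 18.2 and 18.1 CPM at 6 h. The 12 h libraries held 19.5, 15.9 and 22.8 CPM and the 24 h libraries 25.8, 24.9 and 24.8 CPM. The 1 h libraries were below every 0 h library, a difference that was not called. All later libraries were above those at 0 h, and the 24 h libraries lay within the 3 h range. The BCL3 log2 fold change was -0.28 at 1 h (SE 0.136, adjusted p 0.965) and 0.96 at 3 h (SE 0.112, adjusted p 6.7e-06). It was 0.49 at 6 h (adjusted p 0.00325) and 0.55 after 12 h (0.00328), and reached 0.93 after 24 h (SE 0.110, adjusted p 7.6e-06). BCL3 rose by 1.25 between 1 h and 3 h (adjusted p 5.4e-06) and fell by 0.47 between 3 h and 6 h (0.00171), a fall that was smaller with length and GC trends removed (-0.21, adjusted p 0.0324). Its 24 h level was 0.44 above that at 6 h (adjusted p 0.00477), and its difference from the 3 h level did not pass the test (-0.03, SE 0.105, adjusted p 0.829). With length and GC trends removed, BCL3 stood 0.90 above 0 h at 3 h (adjusted p 2.6e-08) and 1.23 above at 24 h (1.6e-10). The 24 h value was then the larger, and the rise between 12 h and 24 h was 0.43 (adjusted p 3.6e-04). In the fit reported, BCL3 rose by 0.38 between 12 h and 24 h (adjusted p 0.0247). That call was lost when 12 h replicate 1 (0.39, adjusted p 0.0758), 12 h replicate 2 (0.25, adjusted p 0.106), 24 h replicate 2 (0.39, adjusted p 0.0761) or 24 h replicate 3 (0.39, adjusted p 0.0712) was omitted, when the close replicates were averaged (0.39, adjusted p 0.0938) and when only those times were fitted (0.37, adjusted p 0.0524).

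NFKBID encodes IκBNS, another nuclear co-regulator, and its entry had the lowest counts of the family. GENCODE 29 places it on chromosome 19 from 35887653 to 35902303 (minus strand) and tags it as an overlapping locus, a reason for caution about its counts. They were whole in every library, and the effect of the overlap was not tested. The NFKBID entry stood at 2.68, 2.30 and 3.36 CPM at 0 h and at 2.03 and 3.40 CPM at 1 h. It was at 5.78, 5.28 and 5.09 CPM at 3 h and at 3.79, 3.78 and 3.56 CPM at 6 h, and the later libraries ranged from 2.89 to 3.61 CPM. All 3 h libraries were above all others. The NFKBID log2 fold change was 0.95 at 3 h (SE 0.177, adjusted p 0.00111) and 0.41 at 6 h (adjusted p 0.0885). The 6 h value passed the threshold without 0 h replicate 3 (0.57, adjusted p 0.0414) and with length and GC trends removed, alone (0.59, adjusted p 0.0232) or with the replicate block (0.59, adjusted p 0.0254). NFKBID fell by 0.54 between 3 h and 6 h (adjusted p 0.0149), which was not called without 3 h replicate 1 (-0.49, adjusted p 0.0572), without 6 h replicate 3 (-0.51, adjusted p 0.0546) or with length and GC trends removed (-0.32, adjusted p 0.155). After 12 h and 24 h the values were 0.21 (adjusted p 0.477) and 0.21 (0.390).

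**Figure D2:**
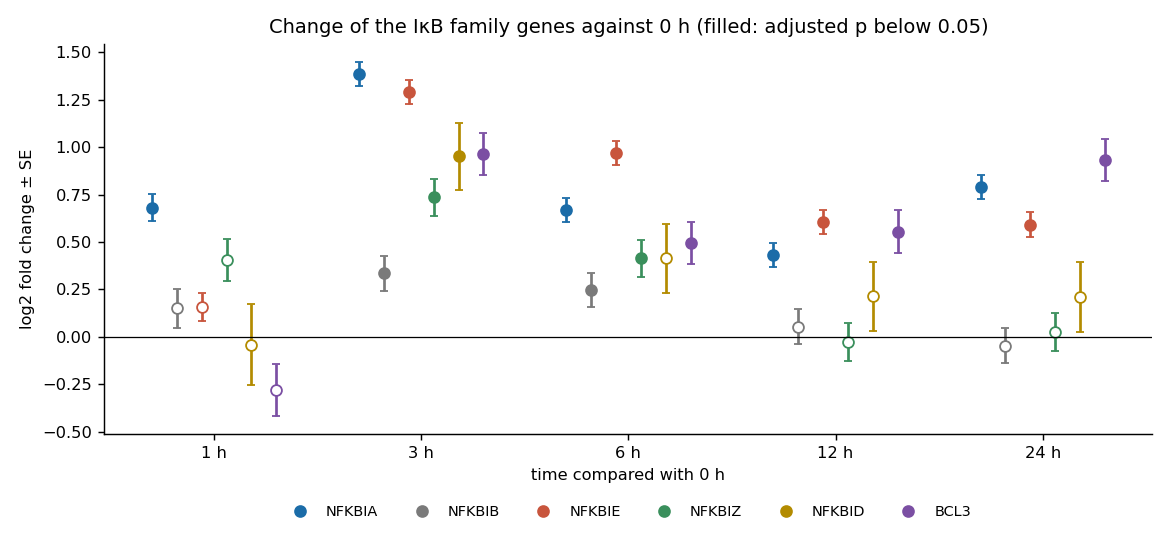
Log2 fold change against 0 h with its SE (vertical axis) for the 6 family genes at 5 times, with filled circles for an adjusted p below 0.05. At 1 h 1 circle is filled (NFKBIA, 0.68), at 3 h all are, and at 24 h those of NFKBIA, NFKBIE and BCL3 are.

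Steps between neighbouring times gave the following counts. From 1 h to 3 h, NFKBIA, NFKBIE and BCL3 rose (3 of 5, background 3.17% higher). From 3 h to 6 h, 4 of 5 fell (background 20.3% lower), and NFKBIB did not pass the test. From 6 h to 12 h, NFKBIA, NFKBIE and NFKBIZ fell (3 of 5, background 11.9% lower). From 12 h to 24 h, NFKBIA and BCL3 rose (2 of 5, background 6.42% higher).

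Levels of different genes were compared per kilobase of the annotated principal transcript, an approximation where several transcripts are made. At 0 h NFKBIA and NFKBIB were the most abundant family transcripts, at 27.4 to 29.5 and 25.3 to 27.5 CPM per kilobase, and NFKBIE followed at 17.3 to 19.5. The nuclear members were lower: BCL3 stood at 5.89 to 7.27, NFKBIZ at 3.73 to 3.84 and NFKBID at 1.26 to 1.83 CPM per kilobase. At 3 h NFKBIA reached 72.5 to 76.7, NFKBIE 43.0 to 47.3 and NFKBIB 29.4 to 37.5 CPM per kilobase, so that NFKBIE stood above NFKBIB in every 3 h library. The 3 cytoplasmic inhibitors summed to 73.2 ± 0.494 CPM per kilobase (SD, n = 3) at 0 h, 152 ± 6.72 (n = 3) at 3 h and 102 ± 4.50 (n = 3) at 24 h. Within that sum, the NFKBIB share was 34.9% to 37.5% at 0 h, 20.3% to 23.6% at 3 h and 24.4% to 25.8% at 24 h. The NFKBIA share was 37.1% to 40.6% at 0 h, 46.6% to 50.05% at 3 h, 39.3% to 40.7% at 6 h and 47.4% to 48.4% by 24 h. The NFKBIE share had its highest mean at 6 h (30.5% to 32.9%) and its lowest at 1 h (20.8% to 21.8%). These sums and shares were not redone with length and GC trends removed. That removal moved the NFKBIB log2 fold change at 24 h against 0 h from -0.047 to 0.29.

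**Figure D3:**
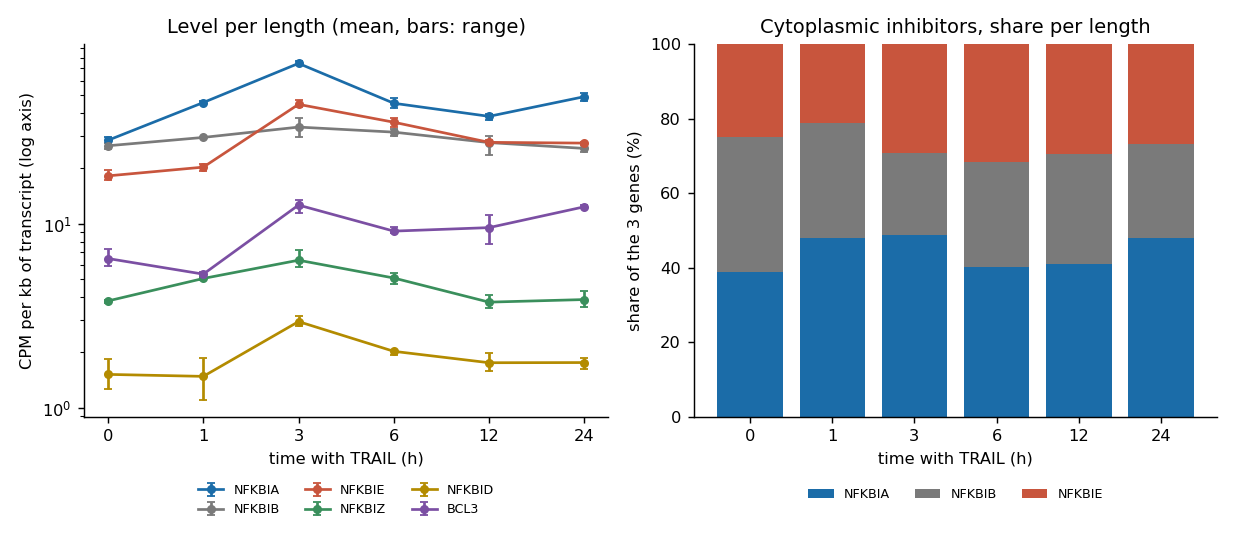
Left, CPM per kilobase of transcript (log axis) for the 6 genes over time in hours, as means with bars from the lowest to the highest library. Right, the mean share in percent of NFKBIA, NFKBIB and NFKBIE in their sum per kilobase, in which the NFKBIB share is lowest at 3 h (20.3% to 23.6%).

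A ratio of 2 genes inside a library does not depend on how that library was scaled. The log2 ratio of NFKBIE to NFKBIA was -0.002 to 0.24 in the 0 h libraries, -0.47 to -0.41 in those at 1 h, -0.11 to 0.084 in those at 3 h, 0.31 to 0.47 in those at 6 h and -0.16 to -0.063 in those at 24 h. NFKBIE was thus lower relative to NFKBIA at 1 h and at 24 h, and higher at 6 h, than in any 0 h library. The log2 ratio of NFKBIB to NFKBIA was -0.65 to -0.46 at 0 h and -1.73 to -1.41 at 3 h. That of BCL3 to NFKBIA was -1.94 to -1.58 in the 0 h libraries and lowest, at -2.77 to -2.65, in those at 1 h. It was -2.28 to -2.06 in the 3 h libraries and -1.64 to -1.54 in those at 24 h. The 3 h ratios lay below those at 0 h and 24 h. The 24 h ratios overlapped those at 0 h, and the means at 24 h and 3 h differed by 0.57. Of 5 ratios compared between 24 h and 3 h, BCL3 to NFKBIA gave p = 0.1 in an exact two-sided permutation test (n = 3 per time, adjusted p 0.375 over the 5), the smallest p that 3 against 3 libraries allow. The other 4 gave exact permutation p of 0.2 to 0.4 (adjusted 0.375 to 0.4), with differences of 0.22 for NFKBIB, -0.10 for NFKBIE, -0.11 for NFKBIZ and -0.14 for NFKBID.

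**Figure D4:**
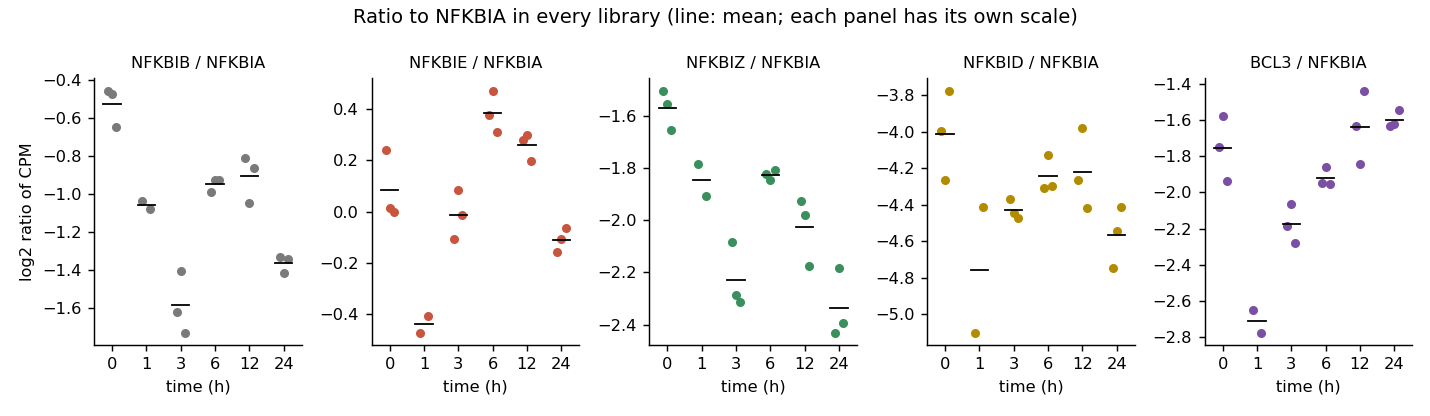
Log2 ratio of the CPM of each family gene to that of NFKBIA (vertical axes differ between panels) in every library over time in hours, with a line at the mean. The BCL3 ratios at 24 h (-1.64 to -1.54) lie above those at 3 h (-2.28 to -2.06) and overlap those at 0 h (-1.94 to -1.58).

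Some genes of the pathway around the family changed as well. Counts against 0 h stand beside shares of all tested genes called higher of 0.260%, 9.04%, 16.9%, 5.96% and 18.0% for 1, 3, 6, 12 and 24 h. Of the 5 NF-κB subunit genes, 0 were called at 1 h, 3 were higher at 3 h (NFKB1, NFKB2 and RELB) and 5 at 6 h, with median log2 fold changes of -0.017, 0.60 and 0.99. At 12 h 2 were higher, and 3 at 24 h. From 3 h to 6 h, when 4 of the 5 family genes fell, NFKB1, which encodes the p50 precursor, rose (0.43, adjusted p 0.00102), as did RELA (0.26, 0.00141), which encodes p65, and no subunit gene was called lower. For that step, 6640 of the 15365 genes tested were called in either direction, 3114 of them lower and the rest higher. Between 6 h and 12 h all 5 subunit genes fell (background 11.9% lower), with a median log2 fold change of -0.68. REL counts were not whole in 16 libraries, so they are less certain.

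Among 6 other feedback inhibitors, 2 were called at 1 h: TNFAIP3, which encodes the ubiquitin-editing enzyme A20 (0.61, adjusted p 0.0159), and ZC3H12A, which encodes the RNase Regnase-1 (1.05, adjusted p 5.8e-04). The TNFAIP3 call at 1 h was lost under 5 of 31 alternatives, among them without either 1 h library (0.64, adjusted p 0.117 and 0.58, adjusted p 0.250), without 0 h replicate 2 (0.51, adjusted p 0.137) or without 0 h replicate 3 (0.61, adjusted p 0.0565). At 3 h, 5 of the 6 were higher (median 0.34), with TNFAIP3 at 1.57 (adjusted p 1.5e-09) and ZC3H12A at 1.30 (1.2e-06). At 6, 12 and 24 h, 5, 3 and 4 were higher and 0 lower (background 16.9%, 5.96% and 18.0% higher, and 30.1%, 12.4% and 35.1% in either direction). Of the 4 IKK and NIK kinase genes, 0, 1, 2, 0 and 2 were higher at 1, 3, 6, 12 and 24 h, where the background was 0.260%, 9.04%, 16.9%, 5.96% and 18.0% higher. The 5 genes of the ubiquitin ligase that recognises phosphorylated IκB gave 0, 1, 3, 2 and 4 higher calls at these times, beside the same background. They also gave 1 lower call at 24 h, when 35.1% of the genes tested were called in either direction and 18.0% higher. Of the further ankyrin genes NFKBIL1 and ANKRD42, ANKRD42 was called higher at 6 h (0.30, adjusted p 0.0470), with counts not whole in 16 of 17 libraries.

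Of 7 genes linked to IκBζ in other cells, 4 could be tested, and IL12B, CCL2 and DEFB4A had at most 6 counts in any library. Of these 4, 2, 3, 3, 3 and 3 were higher at 1, 3, 6, 12 and 24 h (background 0.260%, 9.04%, 16.9%, 5.96% and 18.0%). At 1 h these were IL6 (0.84, adjusted p 5.8e-04) and CSF2 (0.73, 0.0271), calls lost under 1 and 6 of 31 alternatives. NFKBIZ was not called at 1 h (0.41, adjusted p 0.224). IL6, CSF2 and CSF3, which encode secreted cytokines, were higher at 3 h by 1.63, 2.34 and 1.59 (adjusted p 1.5e-09, 9.7e-11 and 0.00359), with 6 to 26 counts per library for CSF3. At 24 h they were higher by 0.84, 0.50 and 1.38 (adjusted p 1.5e-05, 0.00687 and 0.00452), while NFKBIZ differed from 0 h by 0.026. The CSF2 call at 24 h was lost without 24 h replicate 1 (0.31, adjusted p 0.0516), and its value was larger with length and GC trends removed (0.75, adjusted p 6.8e-06). LCN2, which encodes the iron-sequestering protein lipocalin-2, went the other way. It stood at 2.74 to 3.67 CPM at 0 h, 3.11 to 3.63 CPM at 3 h, 0.411 to 0.944 CPM at 12 h and 0.133 to 0.703 CPM by 24 h, with as few as 2 counts in a library. The LCN2 log2 fold change was -2.37 at 12 h (adjusted p 5.1e-05) and -3.04 at 24 h (4.4e-06). At 6 h it was -0.70 (adjusted p 0.0442), a call lost under 13 of 31 alternatives, for example without 6 h replicate 3 (-0.57, adjusted p 0.177) or 0 h replicate 1 (-0.61, adjusted p 0.149).

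**Figure D5:**
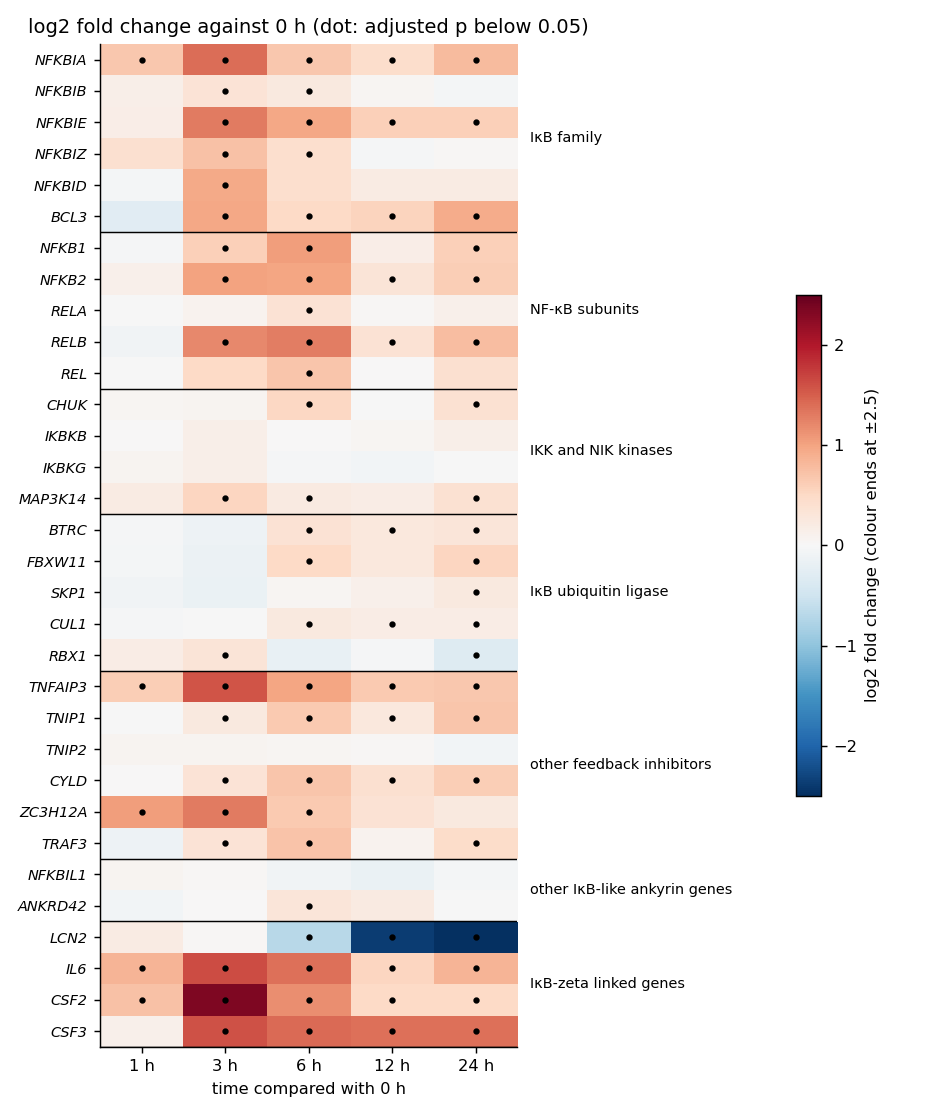
Log2 fold change against 0 h (colour) of the family and of the tested genes of 6 pathway lists (rows) at 5 times (columns), with a dot for an adjusted p below 0.05. Each family row is darkest at 3 h, where NFKBIA reaches 1.39, and LCN2 is deep blue at 12 h (-2.37) and 24 h (-3.04).

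Over the 17 libraries, the log2 CPM of the family genes ran in parallel to different degrees. The Pearson correlation, given as a description over libraries that share time and treatment, was 0.83 for NFKBIA with NFKBIE and 0.77 for NFKBIA with NFKBIZ, and 0.27 and 0.21 for BCL3 with NFKBIB and NFKBIZ. Among the 11369 genes with a mean log2 CPM of at least 2, those most like NFKBIE were CXCL1 (0.97), TPRA1 (0.95) and NFKB2 (0.95), the first a neutrophil-attracting chemokine. Most like NFKBIA were FAM43A (0.93), NUAK2 (0.92) and CDC42EP2 (0.91), and most like NFKBIB were IER2 (0.92), SERTAD1 (0.92) and DAPK3 (0.91). The nearest to NFKBIZ were DGKD (0.92), SIK1B (0.91) and TM4SF1 (0.91), and the nearest to BCL3 were AC087289.1 (0.93), TGIF2 (0.93) and IL11 (0.92). For NFKBID they were IPPK (0.92), VDR (0.87) and CXCL8 (0.85).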

How the data were processed

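TruSeq Stranded mRNA libraries of 17 samples were analysed. The authors deposited one table of RSEM expected counts per gene, per the file name; 10.8% of values were not whole. The submitters' processing notes list cutadapt 1.18, STAR 2.7.0f and hg38. The RSEM version, annotation release and strand setting are not given in the sources used here. Expected counts were rounded, filtered with filterByExpr and scaled by TMM in edgeR 4.0.16 (R 4.3.3). All libraries entered a single robust quasi-likelihood fit with the times as groups, and p-values were adjusted over the 15365 genes tested (threshold 0.05). The fit was tested on simulated data. Log2 CPM for correlations used a prior count of 2, and the ratios to NFKBIA used no prior count. Named are the 6 family genes, members of 6 pathway lists by role, and the 3 genes most correlated with each family gene. Members and lists were chosen with earlier results of these data known. Positions and transcript lengths are from GENCODE 29 (GRCh38), which matched 58597 of 58870 entries when versions were ignored. Promoters are from RefSeq (GRCh38.p14), with entries for 5 of the 6 genes. Alternatives were other scalings and filters, DESeq2 1.42.0, limma-voom (limma 3.58.1), non-robust estimation, fits of 2 groups, a replicate block, removal of length and GC trends, unrounded counts, averaged close replicates and each library left out.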

Additional observations from a re-analysis of the deposited data

How the results depend on the processing

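Over 54 fold changes of the 6 family genes and 31 alternatives (17 of them leaving out a library), 1593 of 1674 refits kept the direction and the call. With the direction kept, 36 lost a call and 11 gained one, and 34 changed sign, called or not. NFKBIB changed sign and was called with length and GC trends removed, alone and with the replicate block. This held at 24 h against 0 h (adjusted p 6.2e-04 and 8.1e-04) and 6 h against 3 h (3.4e-04 and 4.7e-04). No fold change called in the report changed sign under these alternatives. Counts of family genes called stayed within 1.5 times of those reported, except at 24 h against 12 h, where 2 became 1 when only those groups were fitted or close replicates were averaged, and ranged from 1 to 2 with a library left out. The share of all tested genes called in either direction was 0.312% (1 h), 17.7% (3 h), 30.1% (6 h), 12.4% (12 h) and 35.1% (24 h) in the fit reported, and it moved more. Without a filter, where more genes were tested, it was 0.652% (1 h), 10.6% (3 h), 15.7% (6 h), 7.61% (12 h) and 17.9% (24 h). With close replicates averaged it was 16.6% for 6 h and 22.7% for 24 h. With length and GC trends removed it was 0.495% for 1 h. With a library left out it ranged over 0.170% to 0.313% (1 h), 9.22% to 19.8% (3 h), 17.4% to 32.4% (6 h), 4.73% to 14.0% (12 h) and 22.5% to 37.8% (24 h), and was lowest without either 1 h library, 0 h replicate 3, 6 h replicate 3, 12 h replicate 2 and 0 h replicate 1, in that order.

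Whether replicate numbers pair the samples was not settled. Deviations of libraries with the same number had a mean correlation of 0.0091 (from -0.20 to 0.21), and those with different numbers -0.0045 (from -0.16 to 0.20). Of 17 libraries, 10 correlated best with a library of their own number, and this count was not tested against chance. With the replicate number as a block, the number of family genes called against 0 h was 5 for 3 h and 6 h and 3 for 12 h and 24 h, and 4 instead of 3 at 3 h against 1 h, where NFKBIZ was added (0.36, adjusted p 0.0347); the block also turned NFKBID at 24 h against 12 h to 5.4e-04. The block with length and GC trends removed gave 26.7% of all genes at 3 h. With those trends removed, alone and with the block, values that changed sign were NFKBIB at 24 h against 0 h (0.29 and 0.29), at 6 h against 3 h (0.29 and 0.29) and at 24 h against 12 h (0.0105 and 0.0111), NFKBIZ at 24 h against 0 h (-0.0785 and -0.0812), and at 24 h against 12 h NFKBIE (0.0015 and 0.00121) and NFKBID (0.0461 and 0.0511). Scaling by library size alone turned NFKBIZ at 12 h (0.00812) and NFKBIB at 24 h against 0 h (0.0266), and NFKBIE (0.0281) and NFKBID (0.0364) at 24 h against 12 h. With a library left out, values that crossed 0 ranged over -0.0108 to 0.15 (NFKBIB, 12 h) and -0.0924 to 0.0233 (NFKBIZ, 12 h), -0.0586 to 0.0905 (NFKBIZ, 24 h) and -0.46 to 0.29 (NFKBID, 1 h) against 0 h, -0.0755 to 0.19 (BCL3, 12 h against 6 h), and at 24 h against 12 h -0.0264 to 0.012 (NFKBIE), -0.0328 to 0.12 (NFKBIZ) and -0.0789 to 0.10 (NFKBID). The cause was not tested. The differences of the 5 ratios to NFKBIA between 24 h and 3 h were redone under fewer alternatives. These were unrounded counts, averaged close replicates, a 3 h or 24 h library left out and pairing by replicate number, and no difference changed sign. The ratios were not redone with length and GC trends removed. The low counts of NFKBID, LCN2 and CSF3 limit their precision.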
